A study of Homo sapiens with 36 samples.

Results

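Protocatechuic acid (PCA, 3,4-dihydroxybenzoic acid) is a small phenolic acid that arises in the body from cyanidin glucosides, the anthocyanin pigments of red and blue fruit. The effect described here is that of PCA on the transcriptome of HepG2 cells after 24 h, pooled over cells that did and did not also receive docosahexaenoic acid (DHA, an n-3 long-chain polyunsaturated fatty acid). It was taken from 12 of the 36 RNA-seq samples of the series, chosen by treatment and time only: 6 samples with PCA (3 of PCA alone, 3 of DHA + PCA) and 6 without it (3 of vehicle control, Ctrl, and 3 of DHA alone). The pooled effect of a gene is the mean of the PCA minus Ctrl difference and the (DHA + PCA) minus DHA difference, with the replicate number as a factor.

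HepG2 is a cell line established from a human hepatoma. PCA was given at 20 µM and DHA at 50 µM. DHA was presented on albumin from an ethanol stock, PCA came from an acidic dimethyl sulfoxide stock, and Ctrl cells were given the carriers alone, in medium without serum. The sources used here do not state whether cells given DHA alone or PCA alone also received the carrier of the other agent. The remaining 24 h groups, PRO (propionate, 70 µM) and DHA + PRO, have no weight in this contrast. They were in the same fit, where they shared the estimate of the spread and the replicate factor, and they served in a separate comparison with PCA. The cells came from 3 independent cultures, and each sample is a pool of 3 replicates from 1 of them, so that samples of different groups can share a culture.

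As background, PCA carries a catechol ring, and catechols are methylated in liver or conjugated with sulfate or glucuronic acid. Phenolic compounds are commonly examined for effects on NRF2, the transcription factor that induces antioxidant and detoxification genes, and on the aryl hydrocarbon receptor, which induces CYP1A1. In the liver, DHA and related fatty acids are known to lower nuclear levels of the SREBF1 factor, but not of the SREBF2 factor. These SREBP factors drive cholesterol and fatty acid synthesis.

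The total count of the 12 libraries ran from 5617341 to 8397200, with 5617341 to 7364416 in the 6 with PCA and 5973164 to 8397200 in the 6 without. Hepatocyte markers were abundant in all of them, and the summed level of 12 such genes was 73174 to 82547 CPM (counts scaled to the library size) with PCA and 72502 to 81069 without. Of 7 markers of leukocytes or Kupffer cells, PTPRC, CD3E and MS4A1 had no count in any of the 12 and CD163 had none in 10, while LYZ was at 1566 to 2259 CPM, CD68 at 42.5 to 54.7 CPM and CD14 at 0 to 3.17 CPM. Their summed level was 1611 to 2314 CPM with PCA and 1780.2 to 2283 CPM without. At 24 h every replicate 3 carries a library number of a later series than replicates 1 and 2, so that the replicate factor also holds this difference between series.

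PCA gave no gene past the threshold at 24 h. With edgeR's quasi-likelihood test on the 18 samples of 24 h, 0 of 11893 genes (0%) reached an adjusted p (Benjamini-Hochberg) of 0.05 or less together with an average log2 CPM above 0. The lowest adjusted p was 0.0516, at which 4 genes lay, so the count of 0 was at the edge of the threshold. At an unadjusted p under 0.05 there were 911 genes, of which 521 (4.38% of the tested genes) were higher with PCA and 390 (3.28%) were lower. In the same libraries and by the same test, the pooled DHA effect (DHA and DHA + PCA against Ctrl and PCA) passed for 298 genes (2.51%), 110 higher (0.925%) and 188 lower (1.58%).

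The count depended on the model. A fit of only the 12 samples of the contrast gave 29 genes (26 higher, 3 lower), keeping genes with low counts gave 28 (25 higher, 3 lower), the DESeq2 Wald test gave 24 (23 higher, 1 lower), robust estimation gave 4 and limma-voom gave 1. A GC-content offset, which was chosen after seeing the data, gave 51 (44 higher, 7 lower). The model without the replicate factor gave 0, with a lowest adjusted p of 0.882 and 532 genes at an unadjusted p under 0.05. The fit of the 12 samples and the Wald test had 16 genes in common, and MTRNR2L8 was the gene that passed in all 6 of the settings just listed with calls. No single gene is therefore called changed below, and each is given by its values.

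**Figure D1:**
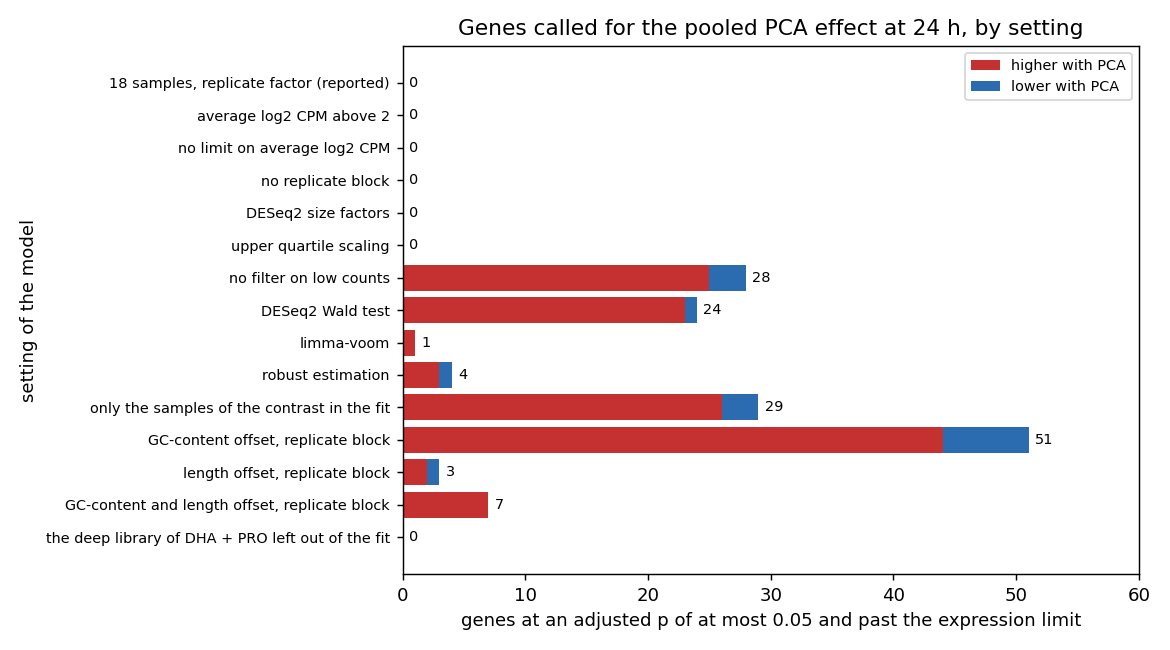
Number of genes called for the pooled PCA effect at 24 h (horizontal axis) under each setting of the model (vertical axis), split into genes higher (red) and lower (blue) with PCA. The reported fit gave 0, while 8 of the other settings gave from 1 to 51, most of them higher with PCA.

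The differences were small. The median absolute log2 fold change over all genes was 0.071 and the median standard error was 0.088. For 10493 genes (88.2%) the 95% interval of the pooled effect lay within a 1.5-fold change in either direction, and for 11558 (97.2%) it lay within 2-fold. It lay within 1.5-fold for each of the 6391 genes whose average log2 CPM exceeded 5.

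Of the genes higher with PCA, the 10 with the lowest p were MTRNR2L8, UQCRB, TMSB10, RBP5, RPL41, RPL19, RPL36AL, APOA2, ORM1 and COX6B1. TMSB10 encodes thymosin beta 10, a small actin-binding protein, and lies on chromosome 2 from 85132763 to 85133799 (hg19). Its level was 303, 308 and 286 CPM in the 3 Ctrl samples and 405, 349 and 365 CPM with PCA. It was 275, 244 and 262 CPM with DHA and 345, 280.4 and 321 CPM with DHA + PCA. All 6 pairs of the same replicate number were higher with PCA, by 0.30 ± 0.056 on the log2 scale (pooled log2 fold change ± SE), with an adjusted p of 0.0516 by edgeR.

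UQCRB, a subunit of respiratory chain complex III, was at 114, 101 and 91.7 CPM in Ctrl and at 127.5, 123 and 112 CPM with PCA. With DHA it was at 126, 109.9 and 94.2 CPM, and with DHA + PCA at 141, 148 and 123 CPM. The 6 pairs were all higher with PCA, the groups as a whole overlapped, and the pooled log2 fold change was 0.29 ± 0.052 (SE, edgeR adjusted p = 0.0516).

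MTRNR2L8 is a nuclear gene on chromosome 11 (10529434 to 10530723, hg19) that closely resembles mitochondrial 16S ribosomal RNA, so that its counts may include mitochondrial reads and are uncertain. Its level was 1880.4, 1547 and 1401 CPM in Ctrl, 2222, 1749 and 1577 CPM with PCA, 1777, 1568 and 1430.0 CPM with DHA, and 2227, 1824.4 and 2101 CPM with DHA + PCA. The pooled log2 fold change was 0.28 ± 0.048 (SE, edgeR adjusted p = 0.0516), with all 6 pairs higher. Its near copies MTRNR2L2 and MTRNR2L1, looked up after these values were seen, had pooled log2 fold changes of 0.32 and 0.11.

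RBP5, a cellular retinol-binding protein on chromosome 12 (7276280 to 7281466, hg19), showed a complete separation of the samples. Without PCA it lay between 13.6 and 18.5 CPM (17.5, 17.3 and 18.5 in Ctrl, 16.1, 13.6 and 16.3 with DHA), and with PCA between 21.0 and 25.1 CPM (25.1, 21.5 and 22.6 with PCA alone, 23.6, 21.0 and 24.4 with DHA + PCA). The pooled log2 fold change was 0.48 ± 0.097 (SE), a 1.40-fold higher level, with an edgeR adjusted p of 0.0983. At 6 h the same contrast was 0.0036 for RBP5. ORM1, the acute-phase plasma protein orosomucoid, was also separated, with 167 to 188 CPM with PCA (median 171) and 124 to 160.0 CPM without (median 148), a pooled log2 fold change of 0.25 ± 0.053 (SE, edgeR adjusted p = 0.104). Reads of ORM1 and its near-identical copy ORM2 cannot be fully told apart, and ORM2 itself (chosen after its value was seen) was 0.14 higher with 4 of 6 pairs higher. Over all genes, the 6 values with PCA lay above all 6 without it for 32 genes (0.269%) and below them for 5 (0.042%).

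APOA2, an apolipoprotein of high-density lipoprotein, was at 3195 to 4123 CPM with PCA (median 3657) and at 2624 to 3640 CPM without (median 3105). COX6B1, a subunit of respiratory chain complex IV, was at 105 to 153 CPM with PCA and 88.4 to 119.5 CPM without. The 3 ribosomal protein genes on the list, RPL41, RPL19 and RPL36AL, had pooled log2 fold changes of 0.31, 0.23 and 0.28. RPL36AL was higher in 5 of 6 pairs and the other 2 in all 6. These genes share sequence with many processed pseudogenes, and RPL36AL with RPL36A (0.22, chosen after its value was seen), so that their counts depend on how the reads were assigned.

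**Figure D2:**
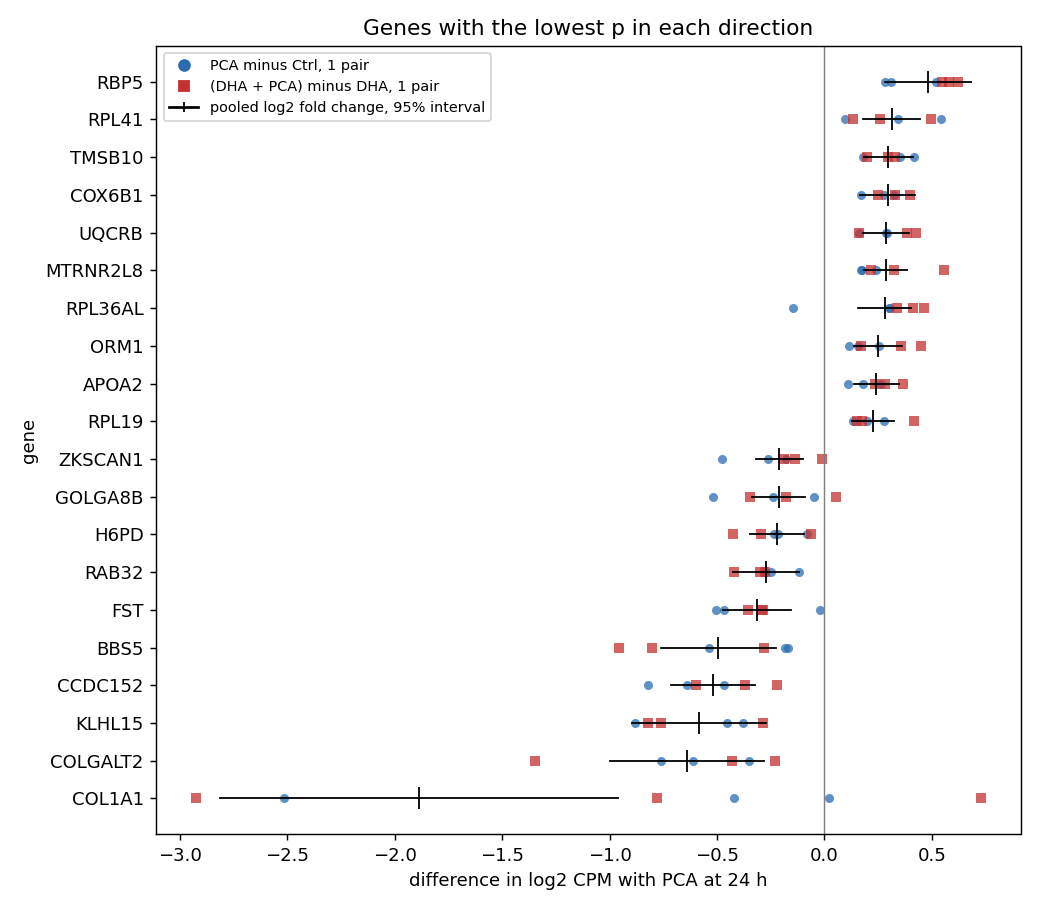
Difference in log2 CPM with PCA at 24 h (horizontal axis) for the 10 genes with the lowest p in each direction (vertical axis). Circles are the 3 PCA minus Ctrl pairs, squares the 3 (DHA + PCA) minus DHA pairs, and bars the pooled log2 fold change with its 95% interval. The pooled values lie between −0.64 and 0.48 except for COL1A1 at −1.89.

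Of the genes lower with PCA, CCDC152 had the lowest p. It lies on chromosome 5 (42756920 to 42802539, hg19) and overlaps SEPP1, the plasma selenium carrier selenoprotein P, on the opposite strand. The library kit does not record the strand, and reads of the 2 genes cannot be told apart where they overlap. CCDC152 was at 36.9, 37.6 and 28.5 CPM in Ctrl and 23.6, 21.2 and 20.5 CPM with PCA. With DHA it was at 21.5, 26.4 and 22.3 CPM, and with DHA + PCA at 16.6, 22.6 and 14.7 CPM. All 6 pairs were lower, with a pooled log2 fold change of −0.52 ± 0.095 (SE, edgeR adjusted p = 0.0516), while SEPP1, chosen after its values were seen, was at −0.10.

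KLHL15, an adaptor of a cullin ubiquitin ligase on the X chromosome (24001833 to 24045303, hg19), was separated between the groups. It was at 14.3, 12.99 and 15.6 CPM in Ctrl and 15.5, 15.2 and 13.1 CPM with DHA, against 7.65, 9.93 and 11.3 CPM with PCA and 8.64, 12.4 and 7.65 CPM with DHA + PCA. The pooled log2 fold change was −0.58 ± 0.15 (SE, edgeR adjusted p = 0.246). Such a separation in the lower direction was seen for 5 of 11893 genes (0.042%). FST, which encodes the activin-binding protein follistatin, had a pooled log2 fold change of −0.31 with all 6 pairs lower, but its levels with PCA (25.4 to 72.8 CPM) overlapped those without (31.1 to 73.9 CPM).

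The others were lower in all 6 pairs except GOLGA8B and COL1A1. BBS5, a subunit of the BBSome of cilia, had a pooled log2 fold change of −0.49, RAB32, a small GTPase, −0.27, and COLGALT2, a collagen galactosyltransferase, −0.64. The value of H6PD, which makes NADPH in the endoplasmic reticulum, was −0.22, that of the zinc finger gene ZKSCAN1 −0.21, and that of GOLGA8B, one of a family of near-identical golgin genes, −0.21.

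COL1A1, a chain of type I collagen made by fibroblasts, had the most negative value of all genes, at −1.89 ± 0.45 (SE, edgeR adjusted p = 0.157). It rested on low counts in a few libraries. The level was 5.82, 2.09 and 0.27 CPM in Ctrl and 2.28, 8.77 and 0 CPM with DHA, against 0.83, 1.496 and 0.28 CPM with PCA and 1.23, 0.96 and 0.15 CPM with DHA + PCA. A total of 2 of the 6 pairs were higher with PCA, and leaving out single samples moved the value between −2.24 and −1.02. COL1A2 and COL3A1, also markers of fibroblasts and chosen after values were seen, were at −1.72 and −1.60, and without replicate 2 of DHA they were at −0.43 and −0.046 and COL1A1 at −1.02. The summed level of the 8 fibroblast or stellate cell markers was 60.9 to 73.2 CPM with PCA and 56.3 to 85.03 CPM without, DCN and LUM were at 0 in 9 and 10 of the 12 libraries, and the part of such cells in the result was not tested.

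Cytosolic ribosomal protein genes, which encode the protein part of the ribosome, were the list with the most members at an unadjusted p under 0.05. Of 76 tested, 63 were higher with PCA and 13 lower, 32 were higher at an unadjusted p under 0.05 and 0 lower, and 21 were higher and 1 lower in all 6 pairs. Over all genes 49.0% were higher, 4.38% were higher at that p, and 3.54% were higher and 2.48% lower in all 6 pairs. Their median log2 fold change was 0.079, against −0.0022 over all genes. RPL11, RPS24 and RPL23A, chosen after their values were seen, had pooled log2 fold changes of 0.20, 0.23 and 0.29. The medians were 0.084 for the 45 genes of the large subunit and 0.069 for the 31 of the small subunit. The median was 0.057 for PCA against Ctrl and 0.11 for DHA + PCA against DHA, and at 6 h the pooled median was −0.058. In the DHA + PCA minus DHA pair of replicate 1 at 6 h their median difference was −0.35, against −0.022 to 0.059 in the other 5 pairs, of which 4 were above 0.

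Nuclear genes for subunits of the mitochondrial respiratory chain, which carries electrons to oxygen and drives ATP synthesis, came next. Of 75 tested, 55 were higher and 20 lower, 18 were higher and 1 lower at an unadjusted p under 0.05, and the median log2 fold change was 0.067. Over all genes 49.0% were higher, and 4.38% were higher and 3.28% lower at that p. The respiratory chain median was 0.059 for PCA against Ctrl and 0.071 for DHA + PCA against DHA. In the 6 h contrast it was −0.024. Among the 6 h pairs, the median difference was −0.27 for DHA + PCA minus DHA in replicate 1. It was −0.063 for PCA minus Ctrl in replicate 2, and 0.012 to 0.070 in the others. By complex, the pooled 24 h medians were 0.093 for the 37 genes of complex I (NADH dehydrogenase) and 0.12 for the 10 of complex IV (cytochrome c oxidase). They were 0.061 for the 9 genes of complex III and 0.046 for the 15 of complex V (ATP synthase). The 4 genes of complex II (succinate dehydrogenase) had a median of −0.062, with 1 of 4 higher. NDUFB8 of complex I was 0.21 higher and COX7B of complex IV 0.25 higher, in 6 and 5 of the 6 pairs, and both were chosen after their values were seen.

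Both of these lists consist mostly of short transcripts, with median counted lengths of 716 and 843 bases against 2921 over all genes. Not all members are short, and UQCRB has a counted length of 4819 bases and RPS24 of 2815. Among the 6391 genes above an average log2 CPM of 5, the difference with PCA moved with length. These genes were divided by counted length into 5 classes of near-equal size. The class of the shortest genes (94 to 1804 bases) had a median log2 fold change of 0.053, and 73.2% of its 1282 genes were higher with PCA. The class of the longest (5467 to 21265 bases) had a median of −0.034, with 31.4% of 1278 genes higher. In the shortest class 234 genes were higher and 15 lower at an unadjusted p under 0.05, and in the longest 8 were higher and 86 lower. The 1160 genes of the shortest class that belong to neither list had a median of 0.049, the 122 that do belong a median of 0.081, and the 21 ribosomal and respiratory genes outside that class a median of 0.0099.

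Across these genes, which are not independent replicates, the pooled log2 fold change had a Pearson r of −0.40 with log2 length (6391 genes) and of 0.40 with GC content (6089 genes). The correlation with length was negative in each of the 6 pairs at 24 h, from −0.083 to −0.30. That with GC content differed in sign between pairs, from 0.10 to 0.65 in the 3 PCA minus Ctrl pairs, and 0.41, −0.16 and −0.27 in the 3 (DHA + PCA) minus DHA pairs. With a length offset per library, chosen after seeing the data, the median of the ribosomal protein genes was 0.041 and that of the respiratory chain genes 0.029. What links length to the difference was not tested.

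**Figure D3:**
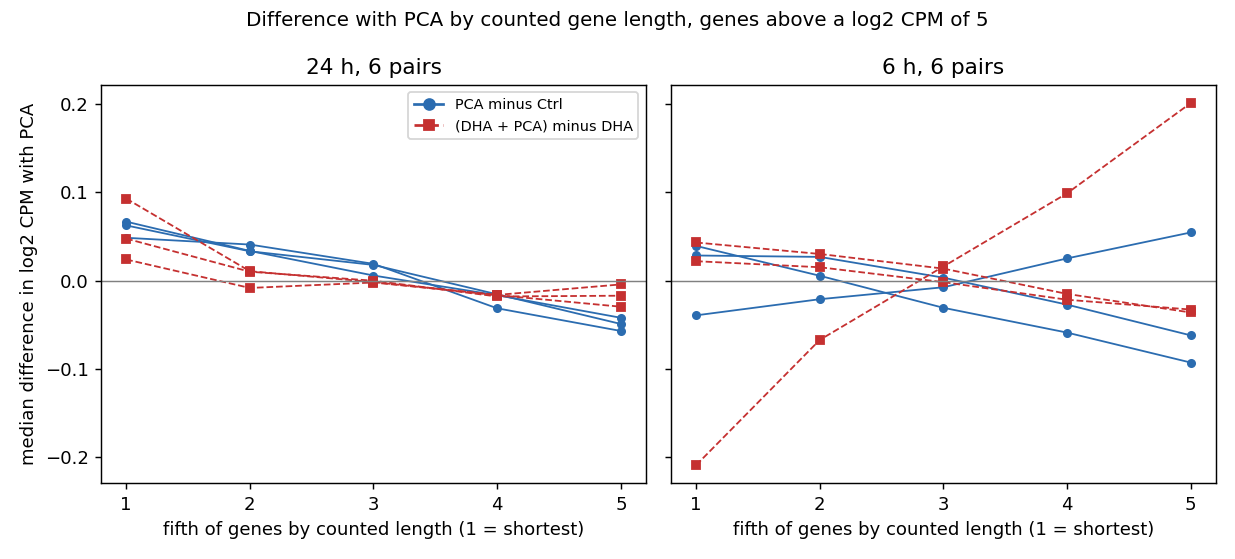
Median difference in log2 CPM with PCA (vertical axis) in the 5 classes of genes by counted length, from shortest (1) to longest (5), for each of the 6 pairs at 24 h (left) and 6 h (right). At 24 h all 6 pairs lie above 0 in the shortest class and below 0 in the longest, while at 6 h the pairs go in both directions and the DHA + PCA minus DHA pair of replicate 1 runs from −0.21 to 0.20.

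The antioxidant genes of the NRF2 list were mostly higher with PCA by small amounts. Of 44 tested, 31 were higher and 13 lower, 8 were higher and 0 lower at an unadjusted p under 0.05, and the median log2 fold change was 0.042. Over all genes 49.0% were higher, and 4.38% were higher and 3.28% lower at that p. The median of the list at 6 h had the opposite sign, at −0.045. Its median counted length was 2232 bases, against 2921 over all genes, and the part of the length trend in these values was not tested. All 5 genes of haem and iron metabolism on this list were higher. HMOX1, the enzyme that breaks down haem, was at 51.2, 70.2 and 68.9 CPM in Ctrl and 69.8, 89.7 and 72.2 CPM with PCA, and at 74.7, 76.3 and 85.1 CPM with DHA and 87.5, 95.5 and 84.7 CPM with DHA + PCA. It was higher in 5 of 6 pairs, with overlapping groups and a pooled log2 fold change of 0.23 ± 0.067 (SE, edgeR adjusted p = 0.312).

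FTL, the light chain of the iron store ferritin, had a pooled log2 fold change of 0.16 with all 6 pairs higher. PGD, an NADPH-producing enzyme of the pentose phosphate pathway, was 0.15 higher. NQO1, a quinone reductase, and GCLM, a subunit of the enzyme that limits glutathione synthesis, are commonly read as NRF2 targets and had values of 0.042 and −0.12, with 4 and 2 of 6 pairs higher. None of the 44 passed the threshold. Of the iron handling list, TFRC, the receptor for iron uptake by transferrin, was lower in 5 of 6 pairs at −0.17 ± 0.053 (SE, edgeR adjusted p = 0.394), and it was at 0.23 in the 6 h contrast.

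For the aryl hydrocarbon receptor list, 7 of 14 genes were higher, 7 were lower and 0 had an unadjusted p under 0.05. CYP1A1, its best known target, was at −0.29 with a 95% interval from −0.88 to 0.30, and the receptor gene AHR itself at −0.16. Among genes that conjugate or transport catechols and phenolic acids, 17 of 35 were higher and 18 lower, with 1 lower at an unadjusted p under 0.05. Of this list MAT2B, a subunit of the enzyme that makes the methyl donor S-adenosylmethionine, was at −0.18 and the acyl-CoA synthetase ACSM2A at 0.33.

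In cholesterol synthesis 10 of 27 genes were higher and 17 lower, with 1 higher and 3 lower at an unadjusted p under 0.05 and a median of −0.016. Over all genes 49.0% were higher, and 4.38% were higher and 3.28% lower at that p. The median was 0.043 for PCA against Ctrl and −0.074 for DHA + PCA against DHA. HMGCS1 and IDI1 of the mevalonate pathway were at −0.12 (95% interval −0.28 to 0.034) and −0.12 (−0.27 to 0.036). STARD4, a cholesterol transfer protein, was lower in all 6 pairs at −0.23 ± 0.080 (SE, edgeR adjusted p = 0.478), and the methylsterol oxidase MSMO1 was at −0.15. The regulators SREBF1 and SREBF2 were at −0.028 and −0.016.

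In fatty acid synthesis 8 of 19 genes were higher and 11 lower. ACACA and FASN, which make malonyl-CoA and palmitate, were at 0.080 and −0.053, and their 95% intervals ran from −0.033 to 0.19 and from −0.22 to 0.12. ACLY, SCD and ACSS2 were at −0.016, −0.012 and 0.0053, and their 95% intervals lay between −0.10 and 0.11. The elongation genes TECR and HSD17B12 had the lowest p of the list, at 0.18 and −0.18. The signs of values this close to 0 depended on the setting for ACLY, SCD, ACSS2, FASN, SREBF1, SREBF2 and PPARA.

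The lists of sterol efflux and of fatty acid oxidation had medians of −0.012 and 0.023, with members from −0.19 to 0.35 and from −0.21 to 0.35. ABCA1, the transporter that hands cholesterol to apolipoprotein A-I, was lower in 5 of 6 pairs at −0.10 (95% interval −0.22 to 0.016), NR1H3, the liver X receptor alpha, was at −0.11, and the plant sterol transporter ABCG5 at −0.17. Of 20 genes on the sterol efflux list 10 were higher and 10 lower. PPARA, the nuclear receptor of fatty acid oxidation, was at −0.0035, its target CPT1A at −0.16, and the mitochondrial dehydrogenase ACADVL was 0.15 higher in all 6 pairs. The fatty acid binding protein FABP1 was at 0.23, with 0.063 for PCA against Ctrl and 0.40 for DHA + PCA against DHA. In the triglyceride and lipid droplet list 8 of 24 were higher, against 49.0% over all genes, with LPIN1 and PNPLA3 both at −0.18. At an unadjusted p under 0.05, 1 gene of that list was higher and 2 were lower.

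**Figure D4:**
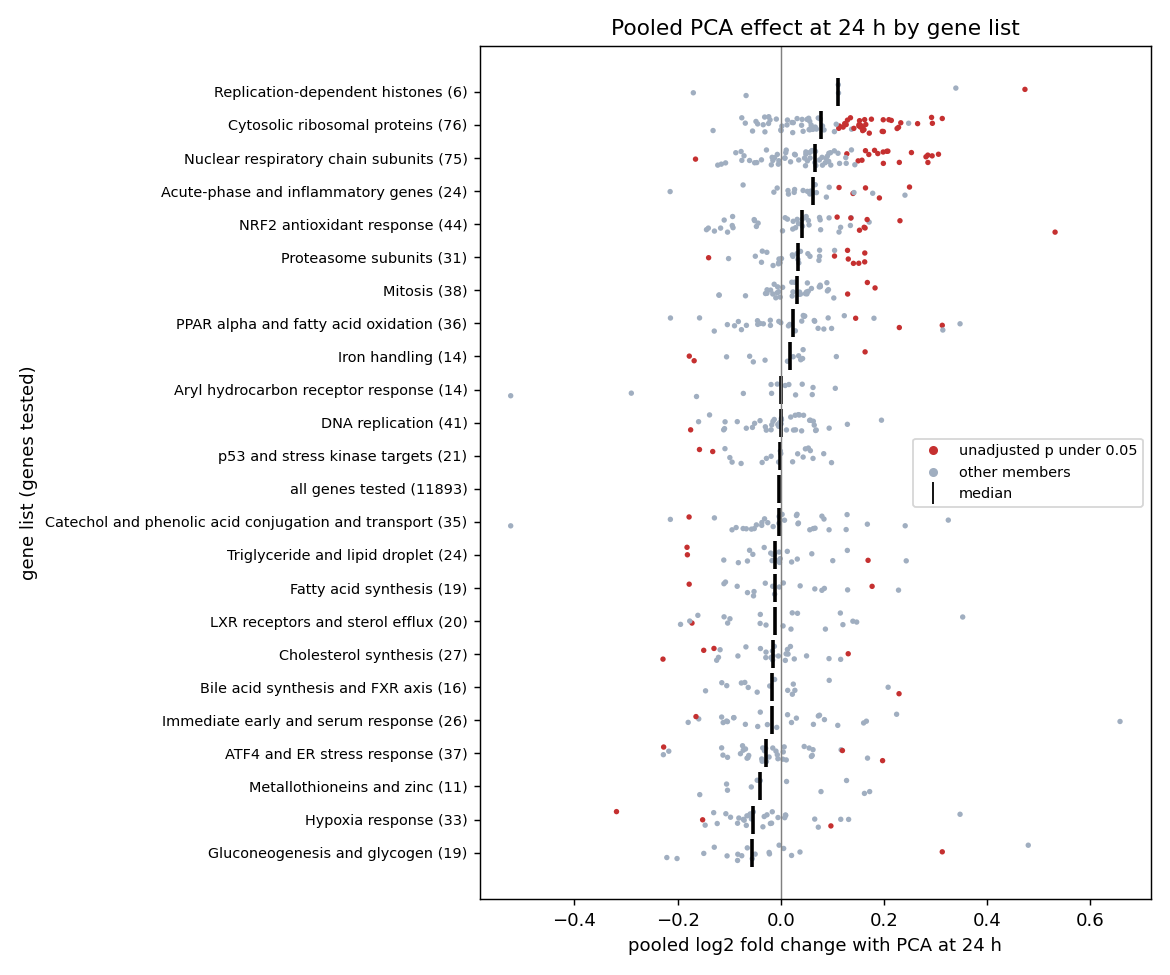
Pooled log2 fold change with PCA at 24 h (horizontal axis) for the members of each gene list (vertical axis, number tested in brackets), with members at an unadjusted p under 0.05 in red, the others in grey and the median as a black line. For all genes tested only the median is drawn. The medians run from −0.055 to 0.11, and no member passed the adjusted threshold.

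Liver secretory and signalling lists were examined in the same way. Of the acute-phase genes tested, 12 of 12 were higher, 5 of them at an unadjusted p under 0.05. Over all genes 49.0% were higher, and 4.38% were higher at that p. The acute-phase median was 0.13 (0.022 for PCA against Ctrl and 0.20 for DHA + PCA against DHA). The part of the length trend in these values was not tested. Haptoglobin (HP) was at 0.19, with 1 pair at 0.79 and the others between −0.073 and 0.17. The 12 NF-kB and cytokine genes of the same list were higher for 8 and lower for 4, with a median of 0.027. In the bile acid list 7 of 16 were higher, and NR1H4, the bile acid receptor FXR, was 0.23 higher in all 6 pairs. Gluconeogenesis and glycogen genes were lower for 14 of 19 (median −0.055), with CREB3L3, a hepatic transcription factor, at 0.31 and the glycogen branching enzyme GBE1 at −0.22. Hypoxia genes were lower for 24 of 33 (median −0.053). At an unadjusted p under 0.05, 1 of them was higher and 2 were lower, against 4.38% and 3.28% over all genes. The oxygen sensors EGLN3 and EGLN1 were at −0.32 and −0.15. SPP1, the secreted glycoprotein osteopontin, was 0.16 higher in all 6 pairs.

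Among stress and growth lists, 20 of 31 proteasome genes were higher (7 higher and 1 lower at an unadjusted p under 0.05, median 0.034), with PSMC5 and PSMD3 both at 0.16. The shares over all genes were 49.0% higher, and 4.38% higher and 3.28% lower at that p. For the proteasome list, too, the part of the length trend was not tested. In the ATF4 and endoplasmic reticulum stress list 13 of 37 were higher, and MANF and CALR, which serve protein folding, were at 0.20 and 0.12. Of 11 metallothionein and zinc genes 5 were higher and 6 lower, and MT1G was at 0.16 with an interval from −0.19 to 0.51. The zinc transporters SLC39A10 and SLC39A14 were at −0.16 and −0.10. Mitosis genes were higher for 24 of 38, with AURKB and MKI67 at 0.18 and 0.13, and DNA replication genes for 21 of 41, with GINS1 at −0.17 and POLE2 at 0.20. Of 26 immediate early and serum response genes 12 were higher, with CTGF at −0.16 and FOSL1 at 0.23. Of 21 p53 and stress kinase targets 10 were higher, with MDM2 at −0.13 and ZMAT3 at −0.16. Of 6 replication-dependent histone genes tested 4 were higher, and HIST2H2BE and HIST1H1C were at 0.47 and 0.11 (0.37 to 0.57 and 0.0093 to 0.18 on leaving samples out, the lowest HIST1H1C value without replicate 1 of PCA).

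The effect was also taken apart by the presence of DHA. PCA against Ctrl gave 0 of 11893 genes (0%), with 406 higher (3.41%) and 371 lower (3.12%) at an unadjusted p under 0.05 and a lowest adjusted p of 0.57 by edgeR. DHA + PCA against DHA gave 0 (0%), with 311 higher (2.61%) and 192 lower (1.61%) at that p and a lowest adjusted p of 0.0596. The interaction, which asks whether the PCA difference itself changed with DHA, gave 0 (0%), with 206 (1.73%) above 0 and 195 (1.64%) below 0 at that p. By alternatives, PCA against Ctrl gave 0 with each tool and offset run on all replicates, while DHA + PCA against DHA gave 8 by the DESeq2 Wald test and 11 with the GC-content offset.

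The 2 differences share no sample, and across genes they were only weakly alike. Pearson's r was 0.081 over all 11893 genes, with 54.3% of genes of the same sign, and 0.22 over the 6391 genes above a log2 CPM of 5, with 57.1% of the same sign. Compared pair by pair over those 6391 genes, the 15 correlations among the 6 pairs ran from −0.16 to 0.33 with a median of 0.081, and 11 were above 0. Between a PCA minus Ctrl pair and a (DHA + PCA) minus DHA pair, r was 0.33, 0.29 and 0.19 where the replicate number was shared and −0.16 to 0.21 in the 6 cases where it was not. Genes are not independent replicates, and the pairs share the length trend described above. Among named genes, HP, FABP1, RPL36AL and PNPLA3 had an unadjusted interaction p of 0.0171, 0.0134, 0.0472 and 0.0483 by edgeR, and none passed after adjustment.

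At 6 h the same contrast gave 0 of 11872 genes (0%) with a lowest adjusted p of 0.999 by edgeR and 153 genes higher (1.29%) and 198 lower (1.67%) at an unadjusted p under 0.05. The difference between the pooled effects at 24 h and 6 h was tested in 1 model of all 36 samples and gave 0 of 12046 genes (0%), with 383 (3.18%) above 0 and 234 (1.94%) below 0 at that p. The pooled values at 24 h and 6 h had an r of 0.023 over 11724 genes.

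Against PRO, the other single bioactive given alone or with DHA, the pooled PCA effect differed for 1 of 11893 genes (0.00841%), which was C19orf80, with 500 higher (4.2%) and 439 lower (3.69%) at an unadjusted p under 0.05. This gene encodes ANGPTL8, a secreted inhibitor of lipoprotein lipase, and overlaps DOCK6 on the opposite strand, so that reads of the 2 genes cannot be fully told apart. Its level was 33.6, 29.5 and 24.1 CPM with PCA and 30.3, 25.95 and 21.3 CPM with DHA + PCA, against 21.5, 17.9 and 10.7 CPM with PRO and 21.9, 17.03 and 14.1 CPM with DHA + PRO. PCA was higher by 0.68 ± 0.11 (log2, SE, edgeR adjusted p = 0.0294), while the pooled PCA effect itself was 0.13 for this gene. The number of genes in this comparison was unstable, with 0 in the model without the replicate factor and 736 without replicate 2. The DHA + PRO library of replicate 2 at 24 h had a total count of 42326734. That is far above the 5617341 to 8397200 of the 12 libraries of the PCA contrast. Of the 15 refits of this comparison without a sample or a replicate number, 3 gave a count above 0. The refit without replicate 2 also left out this library, and what made the count unstable was not tested.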

How the data were processed

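RNA-seq was performed on HepG2 cells, and the values used are the raw counts of reads per RefSeq gene that the authors deposited for 18932 genes, without normalization. The authors prepared libraries with the TruSeq v2 kit, aligned reads to hg19 with STAR and counted them with the iRNA-seq pipeline, whose versions are not given in the sources used here. The deposited table also holds each gene's position and counted length (other units). Duplicate reads and strand are not described, and counts are of reads rather than of molecules.

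With edgeR 4.0.16 (R 4.3.3), the 18 samples of 24 h were fitted with group and replicate number as factors, after filterByExpr and TMM scaling, by the quasi-likelihood test. The Benjamini-Hochberg adjustment covered every tested gene. The replicate factor was set by the contrast itself. Pair differences are in log2 CPM (prior count 2). Alternatives used DESeq2 1.42.0 and limma 3.58.1, and GC-content and length offsets by a spline of 5 degrees of freedom, with GC known for 94.3% of tested genes. Plots used matplotlib 3.10.9 (Python 3.11.15).

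Named were the 10 genes with the lowest p in each direction, the 2 lowest in each list, a fixed set of genes (1 of which is not reported here), and genes past the threshold in the other comparisons. The contrast and the gene lists were chosen with earlier results of these data known.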

Additional observations from a re-analysis of the deposited data

Results flagged for a closer look

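Among the 6 pair differences in log2 CPM of each of 79 named genes, 4 had 1 pair far from the other 5 by Dixon's criterion, which chance meets in about 1 of 20 groups, about the share seen here. CTGF was at 0.061 in the PCA minus Ctrl pair of replicate 2, against −0.25 to −0.13 in the others. HP was at 0.79 in the (DHA + PCA) minus DHA pair of replicate 3, against −0.073 to 0.17. POLE2 was at 0.82 in the (DHA + PCA) minus DHA pair of replicate 1, against −0.048 to 0.22. RPL36AL was at −0.15 in the PCA minus Ctrl pair of replicate 1, against 0.30 to 0.46.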

How the results depend on the processing

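The count of 0 genes for the pooled PCA effect at 24 h was not stable. It was 28 without the filter on low counts, 24 by the DESeq2 Wald test, 1 by limma-voom, 4 with robust estimation, 29 with only the samples of the contrast, and, among settings chosen after seeing the data, 51 with the GC-content offset, 3 with the length offset and 7 with both. It was 0 with DESeq2 size factors, upper quartile scaling, other limits on average expression, no replicate block, and, also chosen after seeing the data, without the deep DHA + PRO library. Leaving out single samples or replicate numbers gave 0 to 5, with 5 without replicate 2, 4 without DHA + PCA replicate 2 and 1 without DHA + PCA replicate 1. In these refits the spread is shared by the groups, so a thinned group is assumed to vary like the others.

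DHA + PCA against DHA gave 8 without the filter, 8 by the Wald test, 2 by limma-voom, 2 with robust estimation, 5 with only the samples of the contrast, 11 with the GC-content offset, 8 with both offsets, and 0 to 1 on leaving samples out (1 without replicate 2). PCA against Ctrl gave 0 to 2 on leaving samples out, with 2 without replicate 2. Pooled PCA against pooled PRO gave 0 without the replicate block, 19 without the filter, 5 by the Wald test, 6 with the GC-content offset, 0 with the length offset and 8 with both. Leaving samples out moved it from 0 to 736, with 736 without replicate 2 and 207 without PRO replicate 2. The pooled DHA effect gave 103 without the replicate block, 565 with only the samples of the contrast, 574 with the GC-content offset, 513 with both, and 87 to 319 on leaving samples out. The pooled effect at 6 h gave 3 without the filter. The interaction and the difference between 24 h and 6 h gave 0 in each setting run. The cause was not tested.

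The following genes, all within 0.06 of 0, changed sign. ACSS2 went to −0.0131 with the GC-content offset and −0.0122 with both offsets, and PPARA to 0.0545 with the length offset and 0.0334 with both. SCD went to 0.0197 and 0.0145 in the same 2 settings, ACLY to 0.00584 and SREBF2 to 0.0138 with the length offset. On leaving samples out, the ranges were −0.0311 to 0.0374 for ACSS2, −0.122 to 0.00335 for FASN, −0.0522 to 0.0393 for PPARA, −0.0278 to 0.0143 for SCD, −0.0833 to 0.0735 for SREBF1 and −0.0678 to 0.0131 for SREBF2. The median of the respiratory chain genes fell to 0.0294 with the length offset. The medians of the ribosomal protein and respiratory chain genes were above 0 in all 15 refits without samples, at 0.052 to 0.12 and 0.045 to 0.086.

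After group means were removed, samples of different groups with the same replicate number correlated by 0.029 to 0.32 (mean 0.17, 18 of 18 above 0). Those with different numbers correlated by −0.26 to 0.058 (mean −0.086), and each of the 12 samples correlated best with one of its own number. With group means removed, positive values for the same number push those for different numbers below 0. The values for different numbers are therefore not separate evidence of pairing. The table headers carry the same numbers of pooled replicates for a replicate number in every group, which hints at a shared culture, but no source used here states it and 14 of the 18 correlations were over 0.1. Without the replicate block the genes at an unadjusted p under 0.05 were 532, and the gene at the lowest adjusted p had 0.882. With 3 samples a group and 5617341 or more counts each, the median standard error of 0.088 (log2) limits what single genes can show.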
